A study of Mus musculus with 2 samples.

Results

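The Hox genes of the mouse, homeobox transcription factors that lie in 4 chromosomal clusters, were followed across the cell classes of the E8.75 yolk sac. All rows of the deposited matrices whose symbol is Hoxa, Hoxb, Hoxc or Hoxd followed by a paralog number were taken, which gave 39 of 30970 genes: 11 of the HoxA cluster, 10 of HoxB, 9 of HoxC and 9 of HoxD. No expression value entered this choice. Yolk sacs of E8.75 embryos were dissociated, the cells were tagged with CellPlex oligonucleotides, and the tagged cells were pooled for droplet-based 3' single-cell sequencing. The study was designed to compare ciliated cell types of the yolk sac with the unciliated visceral endoderm. Every cell carried the genotype Ttr-Cre/+; R26lsl-rtTA-EGFP/+, in which the Ttr promoter drives Cre in the visceral endoderm and Cre switches on a reporter from the Rosa26 locus. There was 1 genotype, 1 stage and no treated group, so the comparisons below are between cell classes within 3 tagged samples, here called tagged samples 1, 2 and 3.

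Hox proteins give cells their position along the head-to-tail axis, and the genes of a cluster are switched on in the order in which they lie, low paralog numbers first and at the head end, high numbers later and toward the tail. They bind DNA together with TALE cofactors of the Pbx and Meis families, their clusters are opened by retinoic acid and Cdx factors and kept silent by Polycomb complexes. The yolk sac is built from extraembryonic mesoderm, which forms its connective layer and gives rise to its endothelium and first blood cells, and from visceral endoderm, the absorptive epithelium that faces the outside.

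Upstream sequences are shown for 3 members that differ in where their transcripts were found: Hoxb8, the highest Hox gene of the endothelium; Hoxb4, which had UMIs in every class and every tagged sample; and Hoxa7, found almost wholly in the endoderm. They are the RefSeq sequences before the annotated start (GRCm38.p6, written 5′ to 3′ on the gene's strand), and capitals mark matches on either strand to TTTATG (a caudal-type motif), TGATNNAT (a Hox-Pbx-type motif), TATAAA (the TATA box) and AGGTCA (bound by nuclear receptors, retinoic acid receptors included).
Hoxb8, chr11:96281655-96281904, plus strand: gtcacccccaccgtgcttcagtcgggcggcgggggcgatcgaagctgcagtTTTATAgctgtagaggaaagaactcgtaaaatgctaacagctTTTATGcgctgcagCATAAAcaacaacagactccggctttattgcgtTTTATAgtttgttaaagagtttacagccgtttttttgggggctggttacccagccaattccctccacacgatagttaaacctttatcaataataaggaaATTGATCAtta
Hoxb4, chr11:96318017-96318266, plus strand: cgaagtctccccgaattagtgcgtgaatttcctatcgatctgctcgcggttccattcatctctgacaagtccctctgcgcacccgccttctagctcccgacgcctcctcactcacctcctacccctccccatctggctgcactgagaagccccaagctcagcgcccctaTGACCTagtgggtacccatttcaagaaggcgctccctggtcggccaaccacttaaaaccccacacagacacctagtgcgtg
Hoxa7, chr6:52218712-52218823, minus strand: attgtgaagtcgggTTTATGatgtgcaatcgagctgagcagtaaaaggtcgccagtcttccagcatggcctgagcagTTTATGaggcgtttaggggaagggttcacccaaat

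In the Hoxb8 window TTTATG matched 157 and, on the other strand, 143 bases before the start, TATAAA matched on the other strand 199 and 110 bases before it, and TGATNNAT matched on the other strand 11 bases before it. The Hoxb4 window held a single match, AGGTCA on the other strand 81 bases before the start, and the Hoxa7 stretch held TTTATG 236 and 173 bases before its start. No match overlapped another in these sequences. Windows of 250 bases were at hand for 22 of the 39 genes (24 windows), and for the whole genome there were 32851 windows. TTTATG was found in 5 of the 24 Hox windows (20.8%) against 10.8% of all windows, TGATNNAT in 4 (16.7%) against 7.68%, TATAAA in 4 (16.7%) against 12.4%, and AGGTCA in 6 (25.0%) against 14.0%. Such a match describes the letters of the window and is neither a binding site nor a cause. The RefSeq start used for Hoxa7 lies inside the gene as GENCODE M21 has it and 78 bases of its window are in exons, so only the 112 bases before them are printed.

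The matrices held 1817 cell barcodes, 460, 651 and 706 in tagged samples 1 to 3, with none shared between matrices. Cells were put into classes by the share of their UMIs (unique molecular identifiers, counts of single transcript molecules) from gate genes: 199 into mesoderm (60, 71 and 68 per tagged sample; Hand1, Vcan and Foxf1), 115 into endothelium (36, 37 and 42; Cdh5, Ctla2a and Plvap), 559 into endoderm (Ttr, Apob and Apom) and 629 into erythroid cells (globins). A further 188 cells met no gate and 50 met more than 1 and were left out. Markers that the gates did not use were high in the class of their name: 9 other mesoderm genes (Col1a1, Postn, Hand2 and others) summed to 1305 to 1757 CPM (counts of UMIs per 1000000 UMIs of the class) in mesoderm and to 144 to 186 in endothelium, and 8 other endothelial genes (Pecam1, Kdr, Tek and others) to 1386 to 1485 in endothelium and 119 to 162 in mesoderm. Of the mesoderm cells, 36 carried trophoblast transcripts (Tfap2c, Plac1 and Ascl2), so mesoderm results are also given without them, a choice made after seeing the data. Hand1, a gate gene of mesoderm, is a trophoblast marker as well, so the gate could let such cells in. Plac1 was also found in endothelium, at 54.2 CPM. In each tagged sample, cells with Xist and cells with Y-linked transcripts were both common (Xist in 54.7%, 59.4% and 38.7% of cells that could be called), although the design text speaks of 3 embryos. P-values therefore measure the spread between tagged samples, and how many embryos each holds was not settled.

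Hox transcripts were abundant in the mesoderm and the endothelium of the yolk sac and scarce in its endoderm and blood cells. Summed over the 39 genes, the level in mesoderm was 278, 372 and 507 CPM in tagged samples 1 to 3 (386 ± 115, SD, n = 3). In endothelium it was 233, 248 and 257 (246 ± 12.2), in endoderm 15.8, 14.7 and 14.1 (14.8 ± 0.874), and in erythroid cells 2.32, 5.32 and 4.47 (4.04 ± 1.55). Every mesoderm and endothelium value lay above every endoderm and erythroid value, and every mesoderm value above every endothelium value. Pooled over the tagged samples, mesoderm held 26.2 times the Hox level of endoderm (95% interval 23.8 to 28.9, counting error only) and 1.58 times that of endothelium (1.48 to 1.70). Without the cells that carried trophoblast transcripts the mesoderm values were 348, 407 and 538. The 36 cells themselves had 53.7, 217 and 319, and their summed mesoderm markers were 207, 1098 and 1357 against 1646, 1875 and 1824 in the rest, so Hox and mesoderm markers were low together; the part of cell identity in this was not tested.

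**Figure D1:**
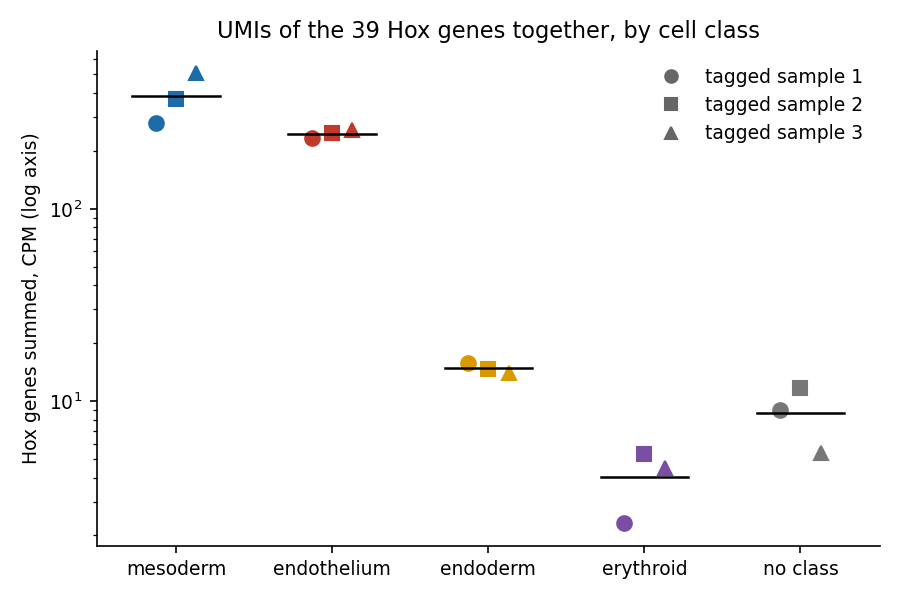
Summed level of the 39 Hox genes in CPM (log axis) in each cell class; circles, squares and triangles are tagged samples 1, 2 and 3, and lines are means. Mesoderm (278 to 507) and endothelium (233 to 257) stand far above endoderm (14.1 to 15.8), erythroid cells (2.32 to 5.32) and cells of no class (5.37 to 11.7).

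Of the 39 genes, 33 had at least 1 UMI in the 4 classes, 4439 UMIs in all, and 30 had more than 3. Hoxa6, Hoxb13, Hoxc12, Hoxd10, Hoxd11 and Hoxd12 were at 0, which over the 4 classes allows up to 0.0396 CPM. With a bar of more than 3 UMIs, 17 genes were found in mesoderm, 16 in endothelium, 19 in endoderm and 10 in erythroid cells, where a count of 0 allows up to 0.421, 0.698, 0.0922 and 0.0943 CPM. The longer endoderm list thus came with a detection limit several times lower. The highest paralog number past that bar was 10 in mesoderm (Hoxc10), 9 in endothelium (Hoxa9 and Hoxb9), 13 in endoderm (Hoxc13 and Hoxd13) and 9 in erythroid cells (Hoxc9). In the 4 classes together 14 genes had 30 or more UMIs, from Hoxc8 (1223) and Hoxb2 (705) down to Hoxc5 (38).

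**Figure D2:**
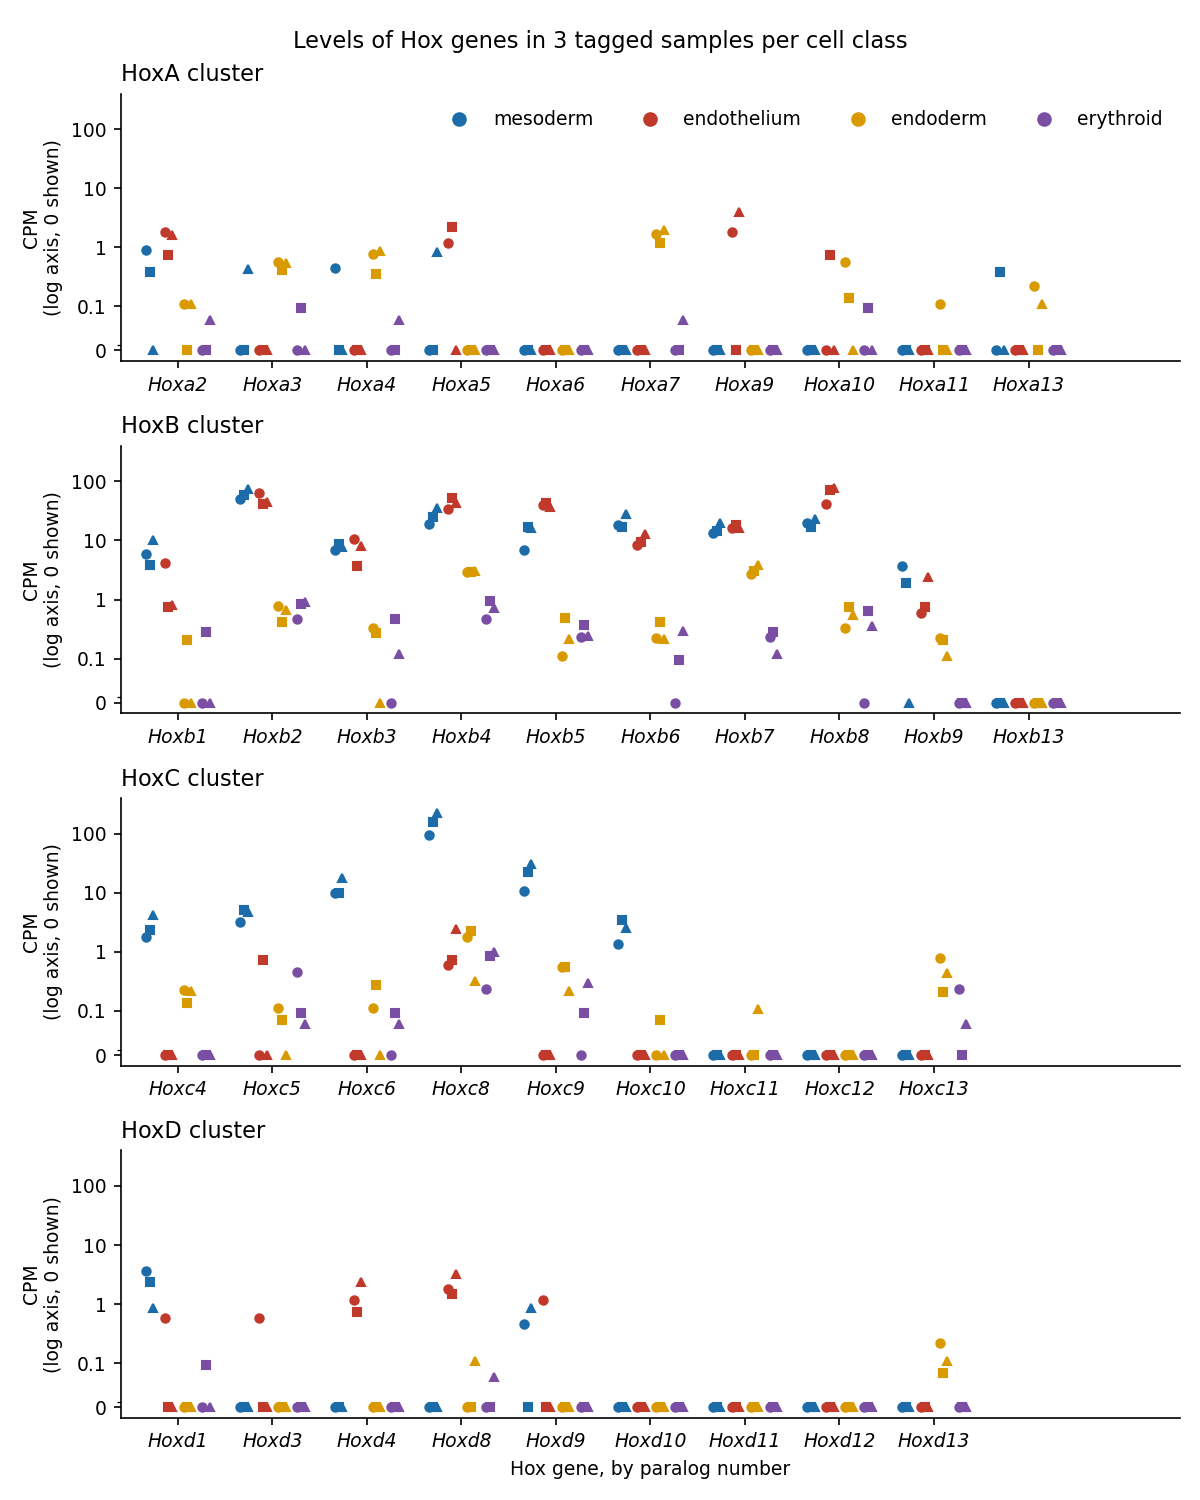
Levels of Hox genes in CPM (log axis that also shows 0), a panel per cluster, genes ordered by paralog number; colours are cell classes and circles, squares and triangles are tagged samples 1, 2 and 3. HoxB genes are high in both mesoderm and endothelium, HoxC genes in mesoderm, and HoxA and HoxD genes stay below 10 CPM in all classes.

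The clusters were used differently in the mesoderm and the endothelium. HoxC genes gave 44.1%, 53.6% and 55.9% of the Hox UMIs of mesoderm (51.2 ± 6.25%, SD, n = 3) and 0.255%, 0.592% and 0.935% of those of endothelium (0.594 ± 0.340%), 6 UMIs of 1051. HoxB genes gave 46.2 ± 4.98% in mesoderm and 94.8 ± 1.43% in endothelium. The mesoderm share was higher by 50.6 percentage points for HoxC and lower by 48.7 points for HoxB (-48.7), in 3 of 3 tagged samples and with no overlap. An exact paired permutation test gave p = 0.25 for each of the 4 clusters, which is the smallest value that 3 pairs allow. HoxA and HoxD were minor in both classes, at 1.84% and 0.811% of mesoderm and 2.82% and 1.79% of endothelium Hox UMIs. In endoderm HoxA genes gave 27.7%, 15.6% and 27.1%, a larger share of a far smaller Hox total. Their level was not higher there. Endoderm had 107 HoxA UMIs among 32540566 UMIs of all genes. Mesoderm had 47 among 7128089 and endothelium 30 among 4294641.

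**Figure D3:**
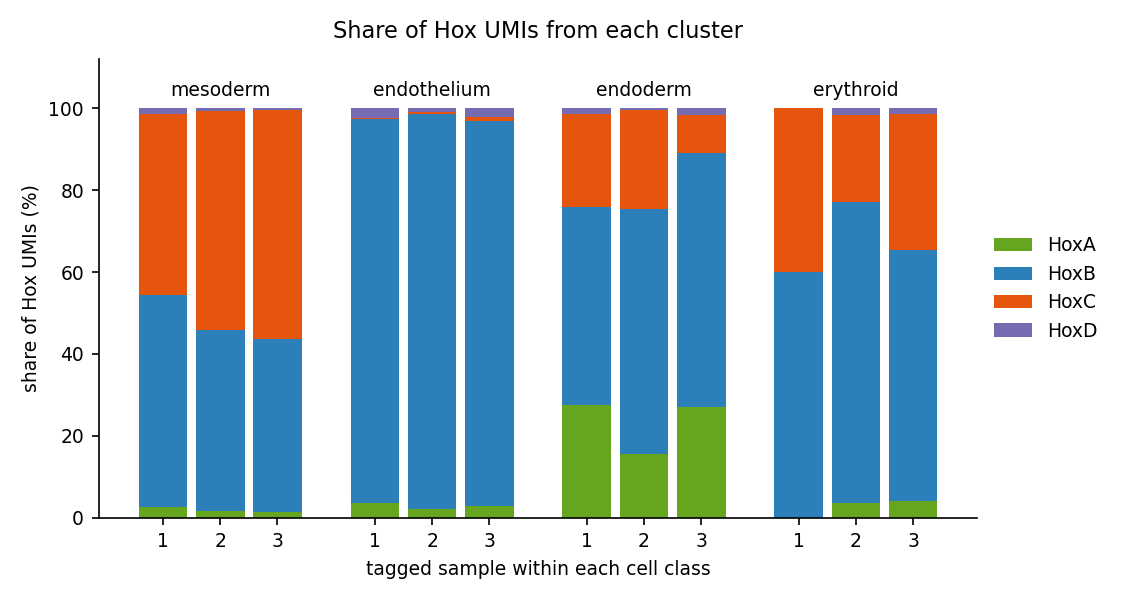
Share of Hox UMIs from each of the 4 clusters, a bar per tagged sample within each cell class. HoxC takes 44.1 to 55.9% in mesoderm and under 1% in endothelium. HoxA takes 15.6 to 27.7% in endoderm, where the Hox total is far smaller.

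Within the HoxB cluster, chr11:96194316-96368256 (GRCm38, GENCODE M21), transcripts of Hoxb1 to Hoxb9 were found in both mesoderm and endothelium, those of Hoxb1 and Hoxb9 in few cells. The classes differed in which genes led. Hoxb2, a gene of hindbrain and neural crest patterning, was high in both: 50.5, 59.9 and 74.6 CPM in mesoderm and 63.5, 41.2 and 44.8 in endothelium. The ranges overlapped, and the log2 difference (mesoderm minus endothelium) was 0.17 with SE 0.19 (edgeR quasi-likelihood test, Benjamini-Hochberg adjusted p = 0.533). Hoxb8, which holds back myeloid differentiation when overexpressed, was at 19.6, 17.1 and 23.3 in mesoderm and at 42.2, 70.6 and 76.8 in endothelium. All endothelium values were higher, by 3.07 times in the pooled counts (95% interval 2.50 to 3.80), and the log2 difference was -1.76 with SE 0.23 (edgeR adjusted p = 5.51e-05).

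Hoxb5, which marks blood stem cells later in life, measured 6.82, 16.7 and 16.1 CPM in mesoderm against 39.2, 42.7 and 36.8 in endothelium. It was lower in mesoderm in every tagged sample, with a log2 difference of -1.68 and SE 0.26 (edgeR adjusted p = 0.000257). Hoxb4, a regulator of blood stem cell expansion, was at 19.1, 24.9 and 35.6 in mesoderm and 33.8, 52.2 and 43.2 in endothelium. Its ranges overlapped and its call (log2 difference -0.81, SE 0.23, edgeR adjusted p = 0.0160) was lost without tagged sample 2 (-0.61, adjusted p = 0.167). Blood progenitor and megakaryocyte markers (Pf4, Gp9, Itga2b, Runx1 and Myb) summed to 83.7 to 129 CPM in the endothelium class and to 7.73 to 14.4 in mesoderm. Of the 5, Gp9 was at 0 in endothelium and Gp9 and Pf4 in mesoderm, and their part in the Hoxb4, Hoxb5 and Hoxb8 levels was not tested.

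Hoxb6, a gene of the lateral plate mesoderm, went the other way: 18.2, 17.1 and 27.6 CPM in mesoderm and 8.31, 9.56 and 12.8 in endothelium, with no overlap. The log2 difference was 0.93 with SE 0.28 (edgeR adjusted p = 0.0202). That call was lost without tagged sample 2 (1.01, edgeR adjusted p = 0.0618) or 3 (0.88, adjusted p = 0.0728), with DESeq2 (0.94, adjusted p = 0.0706) and with the sums thinned to equal depth (adjusted p = 0.124). Hoxb7, known from the kidney duct (13.6, 14.4 and 19.9 against 16.0, 18.4 and 16.0) and Hoxb3, a hindbrain gene (6.82, 8.56 and 7.63 against 10.7, 3.68 and 8.00) overlapped between the classes. Neither passed the test: -0.19 with SE 0.23 for Hoxb7 (edgeR adjusted p = 0.567) and -0.11 with SE 0.37 for Hoxb3 (adjusted p = 0.851). Hoxb1, a hindbrain segment gene, had 47 UMIs in mesoderm (5.91, 3.89 and 10.2 CPM) and 9 in endothelium, 6 of them in 1 cell. Hoxb9 had 13 and 5. In mesoderm the top 5 cells held 27 of the Hoxb1 UMIs and 12 of the Hoxb9 UMIs. Both genes were too low for the test.

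The HoxC cluster, chr15:102921103-103036852, set the mesoderm apart from the endothelium. Hoxc8, a gene of the thoracic body level, was its highest Hox gene in CPM and also in CPM per kilobase of transcript, at 95.5, 156 and 224 CPM, and alone gave 34.3%, 42.1% and 44.2% of the mesoderm Hox UMIs. In endothelium it had 1, 1 and 3 UMIs (0.594, 0.735 and 2.40 CPM), so the pooled level in mesoderm was 137 times higher (95% interval 58.7 to 424). The groups were far apart, and the log2 difference was 6.89 with SE 0.50 (edgeR adjusted p = 3.31e-07). Tagged sample 3 held the highest and tagged sample 1 the lowest mesoderm level, and without the cells that carried trophoblast transcripts the pooled ratio to endothelium was 159 (68.1 to 492).

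Hoxc9, which acts at the thoracic level and in motor neuron identity, followed at 10.9, 22.2 and 30.5 CPM in mesoderm and was at 0 in all 3 endothelium sums, at least 30.7-fold lower. Hoxc6 (10.0, 9.73 and 17.8) was also at 0 in endothelium, at least 17.9-fold lower. Both passed the test (edgeR adjusted p = 0.00011 and 0.00012). The other HoxC genes of mesoderm were low: Hoxc5 had 31 UMIs against 1 in endothelium (ratio 18.7, 95% interval 3.11 to 761), Hoxc4 had 20 and Hoxc10 had 18 against 0 each, at least 4.02-fold and 3.62-fold lower. The annotated exons of Hoxc5 and Hoxc10 share 166 bases, so reads could be split between that pair. Hoxc11 and Hoxc13 had no UMI in mesoderm or endothelium, and Hoxc12 was at 0 everywhere, so at this depth mesoderm transcripts were found from Hoxc4 to Hoxc10 and not from the last genes of the cluster.

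Between mesoderm and endothelium, 10 of the 39 Hox genes passed the filter on low counts, and 7 were called at an adjusted p under 0.05: 4 higher in mesoderm (Hoxc8, Hoxc9, Hoxc6 and Hoxb6) and 3 lower (Hoxb8, Hoxb5 and Hoxb4). Of all 9103 genes tested, 35.4% were called, 15.9% higher and 19.5% lower in mesoderm (1447 and 1776 genes, but 1985 and 1438 with library size scaling). Hoxc8, Hoxc9 and Hoxc6 passed the filter through mesoderm alone, so the filter favoured the direction of their calls. The sample ranges of 6 of the called genes did not overlap, Hoxb4 being the exception. Leaving out cells with trophoblast transcripts left the count at 7.

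**Figure D4:**
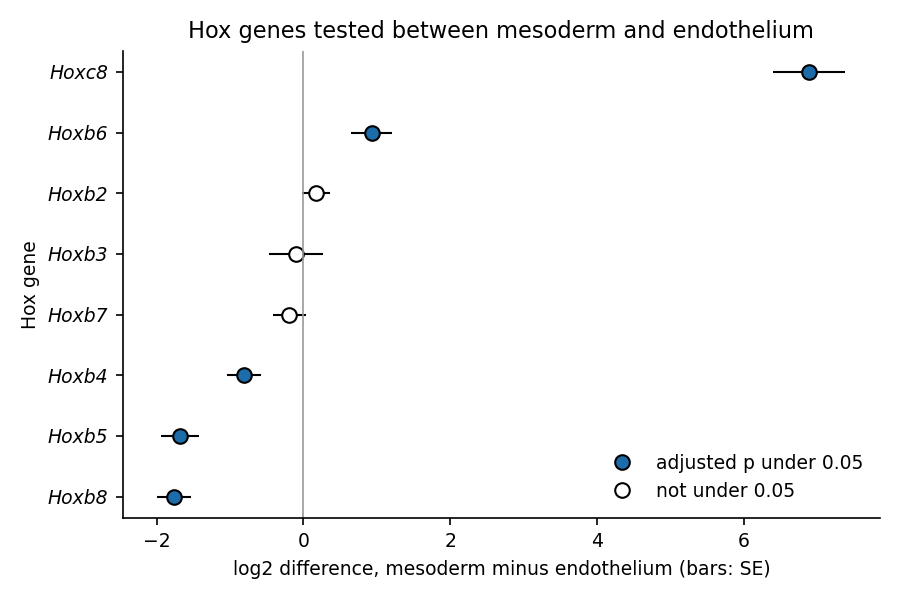
log2 difference between mesoderm and endothelium for the 8 tested Hox genes with UMIs in both classes, with SE; filled points have an edgeR adjusted p under 0.05. Hoxc8 stands at 6.89, while Hoxb8, Hoxb5 and Hoxb4 lie below 0; Hoxc9 and Hoxc6, at 0 in endothelium, are left out.

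HoxA and HoxD genes were near the detection limit in both classes. Hoxd1 had 16 UMIs in mesoderm, 11 of them in 5 cells, and 1 in endothelium (pooled ratio 9.64, 95% interval 1.50 to 404). In endothelium Hoxd8 had 9 UMIs (1.78, 1.47 and 3.20 CPM) and Hoxa9, a gene of blood stem cells, had 8 (3, 0 and 5), both at 0 in mesoderm and at least 4.98-fold and 4.43-fold lower there. Hoxd4 had 6 UMIs against 0 and Hoxa2 and Hoxa5 had 6 and 5 against 3 and 2. The UMIs of Hoxa9 came from 4 endothelium cells, and the exons of Hoxd3 and Hoxd4 share 388 bases. Hoxd9 had 3 UMIs in mesoderm and 2 in endothelium, Hoxd3 had 1 in endothelium, and Hoxa10 had 1 in endothelium, 7 in endoderm and 1 in erythroid cells. Hoxa13 had 1 UMI in mesoderm and 3 in endoderm, Hoxa11 and Hoxc11 had 1 each in endoderm, and Hoxd13 had 4 there.

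By paralog number, the mesoderm summed to 114 ± 22.7 CPM for paralogs 1 to 4, 246 ± 84.0 for paralogs 5 to 8 and 26.1 ± 8.93 for paralogs 9 to 13 (SD, n = 3). In endothelium the sums were 108 ± 10.6, 134 ± 21.9 and 3.81 ± 2.47. Paralogs 1 to 4 overlapped between the classes (95.1, 107 and 139 against 120, 101 and 102), while for paralogs 5 to 8 and 9 to 13 every mesoderm value was above every endothelium value. These differences were not tested. Paralogs 10 to 13 were at 2.60 ± 1.26 in mesoderm, nearly all Hoxc10, and 0.245 in endothelium, 1 UMI.

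Single cells showed the same division. Each cell was thinned to 20000 UMIs, which left out 25 mesoderm, 31 endothelium, 48 endoderm and 13 erythroid cells below that depth. A Hox UMI was then found in 160 of 174 mesoderm cells (92.0%, exact 95% interval 86.9 to 95.5) and 83 of 84 endothelium cells (98.8%, 93.5 to 99.97). The shares of endoderm and erythroid cells were 20.2% and 5.52%. The unthinned counts were 183 of 199, 109 of 115, 240 of 559 and 79 of 629, at median depths of 34959, 35699, 56338 and 47771 UMIs. The erythroid share is a reference and not an even background. Of the 142 erythroid Hox UMIs 56 lay in 5 cells, and their level went from 4.46 to 3.13 CPM without Scrublet calls. HoxB and HoxC transcripts occurred in the same mesoderm cells: 117 of 174 (67.2%) had both, 32 had HoxB without HoxC, 7 had HoxC without HoxB and 18 had neither. In endothelium 83 of 84 cells had HoxB and 0 had HoxC at this depth. Thinned to 10000 UMIs, 1 of 100 endothelium cells had a HoxC UMI, and unthinned 6 of 115 did (5.22%). The median was 8 Hox UMIs from 4 genes in a mesoderm cell and 5 from 3 genes in an endothelium cell.

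Hoxc8 was found in 67.2% of thinned mesoderm cells (46.3%, 70.0% and 83.3% by tagged sample), in none of the endothelium cells (5 of 115 unthinned) and in 0.812% of erythroid cells. Hoxb8 was found in 33.3% of mesoderm and 60.7% of endothelium cells against 0.649% of erythroid cells. Hoxb2 had nearer shares, at 60.3% and 66.7%, and so did Hoxb7, at 27.0% and 34.5%. The higher Hoxb8 level of endothelium thus went with a larger share of cells with a UMI, and both Hoxb2 and Hoxb8 shares were far above the erythroid shares.

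Against the endoderm, 14 Hox genes passed the filter on low counts and were called higher in mesoderm (edgeR adjusted p under 0.05). Of the 14, only Hoxb7 and Hoxb4 reached the filter's level in all 3 endoderm sums. The others entered through their mesoderm counts (for example Hoxb1 with 47 UMIs against 3, Hoxc6 with 89 against 5 and Hoxc5 with 31 against 2). Genes with most UMIs in endoderm did not pass (Hoxa7 with 50 there and 0 in mesoderm, Hoxa4 with 20 and 1, Hoxa3 with 16 and 1). The filter thus sets much of this count and of its direction. Over all 11011 genes tested, 63.8% were called and 30.6% were higher in mesoderm (3369 higher and 3656 lower, but 4583 and 2757 with library size scaling). The log2 differences ran from Hoxb7 at 2.07 (SE 0.24, edgeR adjusted p = 1.35e-05) to Hoxb2 at 6.43 (SE 0.24, adjusted p = 1.86e-09). Between mesoderm and erythroid cells 13 genes passed the same filter and were called higher in mesoderm, where 70.8% of 9742 genes were called and 37.6% were higher (3664 higher and 3235 lower, but 5191 and 1637 with library size scaling). Between endothelium and endoderm 7 passed, Hoxb2 to Hoxb8, and were called higher in endothelium, where 60.5% of 10694 genes were called and 28.6% were higher. The 13 genes reached the filter's level in mesoderm and not in erythroid cells, and of the 7 only Hoxb7 and Hoxb4 reached it in endoderm too. The filter sets much of these counts and of their direction as well. The comparisons share their class sums with each other and are given side by side.

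The endoderm, the absorptive epithelium in which Cre was active, had a small Hox signal. Its leading genes, in CPM and in tagged samples 1 to 3, were Hoxb7 at 2.69, 3.05 and 3.92 and Hoxb4 at 2.91, 2.98 and 3.05. Hoxa7, a thoracic-level gene, was at 1.68, 1.18 and 1.96 (50 UMIs) and was at 0 in mesoderm and endothelium, at least 3.65-fold and 2.20-fold lower. In pooled CPM the order was Hoxb7, Hoxb4, Hoxc8 and Hoxa7. In CPM per kilobase of transcript it was Hoxb7, Hoxa7, Hoxb4 and Hoxc8, although a UMI counts a molecule whatever its length. Erythroid cells had 1 UMI of Hoxa7, so the pooled endoderm level was 48.9 times higher (95% interval 8.38 to 1969). Further HoxA genes were low: Hoxa4 with 7, 5 and 8 UMIs and Hoxa3 with 5, 6 and 5, each with 1 UMI in mesoderm and in erythroid cells. Their pooled ratios to mesoderm, 4.38 (95% interval 0.701 to 182) and 3.505 (0.5445 to 147), did not exclude 1. Those to erythroid cells were 19.55 (3.13 to 810) and 15.64 (2.43 to 656). Both genes were at 0 in endothelium, with lower bounds of 0.880 and 0.704. Hoxc13, from the tail end of its cluster, had 7, 3 and 4 UMIs in endoderm, none in mesoderm or endothelium and 2 in erythroid cells. Against a floor of 3 counts, its endoderm level was at least 1.02-fold that of mesoderm and 0.616-fold that of endothelium. The counts of 0 in these shallower classes thus do not show a clear difference. The pooled ratio to erythroid cells was 6.84 (95% interval 1.57 to 62.0).

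A comparison of endoderm with erythroid cells was added after seeing the data. Of the 4 Hox genes that passed its filter, 3 were higher in endoderm: Hoxa7 by 5.01 on the log2 scale (SE 0.70, edgeR adjusted p = 3.73e-05), Hoxb7 by 3.79 (SE 0.42, adjusted p = 5.17e-06) and Hoxb4 by 1.76 (SE 0.29, adjusted p = 0.000170). Of 11055 genes tested, 77.9% were called and 41.8% were higher in endoderm. The share of Hox genes called in either direction, 3 in 4, is near the first of these. All 3 called genes passed the filter through endoderm alone, so their shared direction cannot be set against the second. Hoxc8, at 1.79, 2.22 and 0.327 in endoderm and 0.232, 0.840 and 1.01 in erythroid cells, overlapped and was not called (0.66, SE 0.56, adjusted p = 0.294), except without tagged sample 3 (1.42, edgeR adjusted p = 0.0376). In cells thinned to 20000 UMIs, Hoxb4 was found in 5.68% of endoderm and 0.812% of erythroid cells, Hoxb7 in 4.50% and 0.325%, and Hoxa7 in 3.33% and 0.162%.

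The endoderm UMIs of these genes were spread over cells in different ways. The 104 UMIs of Hoxb7 lay in 82 cells, with 13.5% of them in the top 5 cells, and the 97 UMIs of Hoxb4 also lay in 82 cells (12.4%). Hoxa7 had 50 UMIs in 45 cells, with at most 2 in a cell. Hoxc8 had 51 UMIs in 18 cells, of which 34 (66.7%) lay in 5 cells and 10 in a single cell. The 9 mesoderm marker genes summed to 238 CPM in endoderm cells with a Hoxc8 UMI and to 34.4 in those without. The gap was smaller for the other 3 leading genes, at 79.6 and 39.3 for Hoxa7, 68.4 and 38.3 for Hoxb4 and 58.0 and 40.0 for Hoxb7. Hoxc8 was not alone in its wide gap in these markers. Among genes with fewer UMIs, Hoxc9 was at 263 and 38.5 (15 UMIs) and Hoxb5 at 229 and 40.9 (10 UMIs). Others had a small gap or none, such as Hoxa4 at 39.8 and 43.5 (20 UMIs). Pdgfra, which gave 703 of the 1412 endoderm UMIs of these markers, is among the 9. Without the 29 endoderm cells that Scrublet called as doublets, the pooled level of Hoxc8 went from 1.57 to 0.471 CPM, while Hoxb7 stayed at 3.20, Hoxb4 went from 2.98 to 2.83 and Hoxa7 from 1.54 to 1.48. Hoxc9 went from 0.461 to 0.168, Hoxb5 from 0.307 to 0.135 and Hoxa4 from 0.615 to 0.572.

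**Figure D5:**
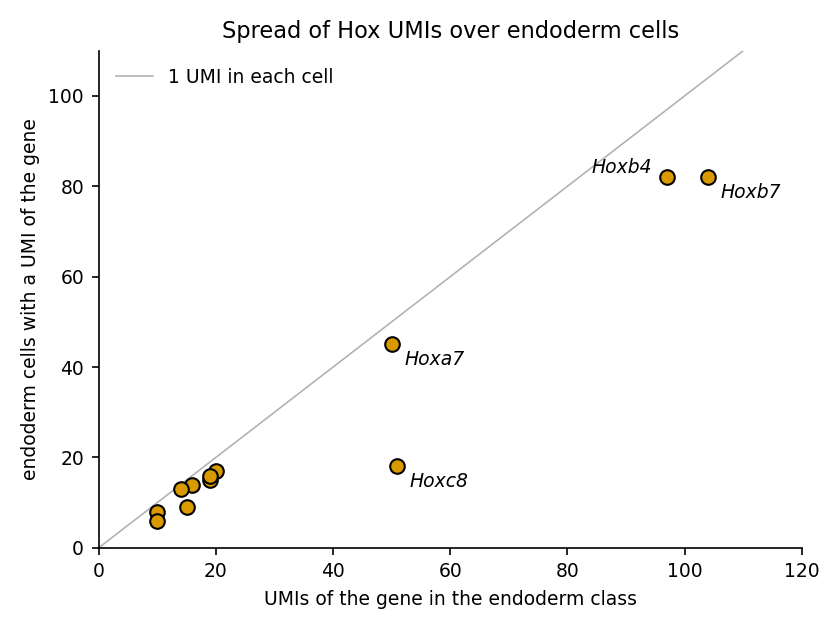
Endoderm UMIs of each Hox gene with at least 10 (horizontal axis) against the number of endoderm cells that hold them; the line marks 1 UMI in each cell. Hoxb7, Hoxb4 and Hoxa7 lie near the line, and Hoxc8, with 51 UMIs in 18 cells, lies well below it.

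Set against the mesoderm level, the endoderm had 0.980% of its Hoxc8 and 0.944% of its Hoxb2, 11.2% of its Hoxb4 and 19.98% of its Hoxb7. Of the 9 mesoderm marker genes, 8 lay between 0.996% (Hand2) and 2.29% (Col1a2) in endoderm. The other, Pdgfra, was at 128% of its mesoderm level in endoderm and gave 703 of the 1412 endoderm UMIs of the list, which summed to 2.70%. Hoxb7 and Hoxb4 in endoderm were thus above 8 of the 9 markers and below Pdgfra, while Hoxc8 and Hoxb2 were below all 9, and Hoxa7 had no UMI in mesoderm. In erythroid cells the 9 markers ranged from 0.704% (Col1a1) to 3.73% (Pdgfra), with Hoxc8 at 0.531% and Hoxb2 at 1.32%. Endothelium had 0.728% of the mesoderm Hoxc8 and 307% of its Hoxb8, while the markers there ranged from 1.17% (Postn) to 29.9% (Bmp4) and summed to 9.97%. The part of free RNA or doublets in these low levels was not tested beyond these values.

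The mesoderm class also held cells with heart-muscle-type contractile genes (Myl7, Actc1, Tnnt2 and Ttn), and Hox levels were compared between these and the other mesoderm cells. A gate at 0.02% of UMIs, chosen after seeing the data because the planned gate kept 1 or 2 cells per tagged sample, gave 15, 11 and 14 contractile cells. The 4 contractile genes summed to 2416, 3547 and 632 CPM in them, but only 1, 1 and 2 of these cells reached 0.1% of UMIs, so the sums of tagged samples 1 and 2 lay above the level of all but 1 of their contractile cells. Their total Hox level (339, 286 and 557 CPM) overlapped that of the other 159 mesoderm cells (261, 391.8 and 497). Hoxb2 was at 113, 103 and 156 in contractile cells and 32.3, 49.9 and 58.2 in the others, a log2 difference of 1.39 with SE 0.22 (edgeR adjusted p = 0.00803). It was the single Hox gene called of 9 tested, where 0.584% of 7707 genes were called, 0.480% higher and 0.104% lower in contractile cells. The call was lost without tagged sample 1 (1.24, edgeR adjusted p = 0.0518) or 3 (1.34, adjusted p = 0.0562).

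Hoxb4 was at 52.4, 51.5 and 62.7 in contractile cells and 9.39, 18.7 and 30.1 in the others, without overlap, but missed the threshold (1.50, SE 0.33, edgeR adjusted p = 0.0703). Hoxc8 was at 52.4, 30.9 and 143 against 108, 186 and 240, with overlap (-1.29, SE 0.38, adjusted p = 0.235). Hoxc9 was at 0, 6.18 and 10.0 against 14.1, 25.9 and 34.7, without overlap (-2.27, SE 0.61, edgeR adjusted p = 0.173). With the tagged sample as a block, since both cell groups come from the same tagged samples, 4 genes were called in place of 1: Hoxb2 and Hoxb4 higher (Hoxb4 1.58, edgeR adjusted p = 0.00475) and Hoxc8 and Hoxc9 lower in contractile cells (-1.32, adjusted p = 0.00671, and -2.24, adjusted p = 0.0193). A list of 9 genes of the embryo proper held neural and paraxial genes and also the heart gene Nkx2-5. Of the 9, 7 were at 0 in the contractile cells. The list summed to 0 to 90.6 CPM there (42.8 pooled) and to 3.57 to 4.80 in the other mesoderm cells (4.175 pooled). The part of the list in the difference was not tested.

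Cofactors and upstream regulators of Hox genes were read as whole lists; named beside the 4 highest of a list in mesoderm are some genes chosen after their values were seen (Meis1, Meis3, Tgif1, Cyp26a1 and Crabp2). Over all genes tested, 30.6% were called higher and 33.2% lower in mesoderm than in endoderm, and 15.9% higher and 19.5% lower than in endothelium, and the counts of each list stand beside these shares. Of 11 TALE cofactors 10 passed the filter between mesoderm and endoderm, and 8 were higher in mesoderm and none lower (10 with library size scaling). Between mesoderm and endothelium 9 passed, with 3 higher in mesoderm, Meis3 and Tgif1 among them, and Meis1 lower (2 higher with DESeq2, and 2 lower with the tagged sample as a block). Meis1, a Hox partner in blood stem cells, was at 8.64, 15.6 and 8.90 CPM in mesoderm and 43.3, 50 and 42.4 in endothelium, with a log2 difference of -2.13 and SE 0.23 (edgeR adjusted p = 1.31e-05). Meis2 (91.6), Pbx2 (60.6) and Pbx3 (35.2) were among the leading TALE genes of mesoderm, in mean CPM.

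Of the caudal factors, which open Hox clusters, Cdx2 was at 25.4, 23.9 and 24.7 CPM in endoderm, at 35.9, 10.9 and 14.8 in mesoderm and at 2.37, 0 and 0 in endothelium. Endoderm and mesoderm overlapped (-0.53, SE 0.31, edgeR adjusted p = 0.153), and endothelium was lower than endoderm (-4.82, SE 0.45, adjusted p = 9.03e-07). Cdx2 also marks trophoblast, and the part of the cells with trophoblast transcripts in its mesoderm level was not tested. Cdx1 and Cdx4 had 1 and 3 UMIs in all. Of 8 retinoic acid genes, 6 passed between mesoderm and endoderm, with 1 higher and 2 lower in mesoderm (30.6% and 33.2% over all genes). The receptor gene Rarg was at 27.7, 20.6 and 22.1 in mesoderm and at most 0.560 in endoderm (5.79, SE 0.31, edgeR adjusted p = 3.09e-08). Cyp26a1, which degrades retinoic acid, was at 45.9, 26.3 and 22.0 in endoderm and 0, 6.61 and 2.54 in mesoderm (-3.51, SE 0.51, edgeR adjusted p = 9.15e-05), and Crabp2, a carrier protein for retinoic acid, was also lower in mesoderm (-4.50, SE 0.58, adjusted p = 3.74e-05).

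Polycomb genes, which keep Hox clusters silent, were called in both directions: of 15 tested between mesoderm and endoderm 4 were higher and 3 lower in mesoderm, and of 12 tested against endothelium 3 were higher and 2 lower (5 and 0 with library size scaling). Of all genes tested, 30.6% were higher and 33.2% lower in mesoderm than in endoderm, and 15.9% and 19.5% than in endothelium. Of the 4 highest Polycomb genes in mesoderm, Phc2 was higher than in endoderm (0.94, SE 0.13, edgeR adjusted p = 7.62e-05), Suz12 was lower (-0.95, SE 0.12, adjusted p = 3.38e-05), and Ezh2 and Rnf2 were not called. Each of the 5 Polycomb calls against endothelium was lost with DESeq2. Of 8 trithorax genes, their counterparts in keeping Hox genes on, 3 were higher and 2 lower in mesoderm than in endoderm (4 and 1 with library size scaling), and 1 and 1 against endothelium (1 and 0 with DESeq2). Among 7 non-coding transcripts of the Hox loci, Hoxb3os (12.3, 17.5 and 16.5 CPM in mesoderm, 37.4, 12.5 and 27.2 in endothelium) and Hotairm1 (10.9, 7.002 and 7.63, and 11.3, 2.94 and 4.0) passed the filter and were higher in mesoderm than in endoderm (4.40 and 2.27, edgeR adjusted p = 2.51e-06 and 4.09e-05). Against endothelium Hoxb3os was at -0.87 (SE 0.32, edgeR adjusted p = 0.0518) and Hotairm1 at 0.28 (adjusted p = 0.668), and with the tagged sample as a block 1 of this pair was called lower in mesoderm. Hottip and Hotair, non-coding transcripts of the HoxA and HoxC loci, were at 0 in all 4 classes. Whether counting used the strand is not stated in any source used here, so the antisense rows and their Hox partners cannot be told apart with certainty.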

How the data were processed

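Yolk sac cells of 1 pooled 10x library were split by tag into 3 matrices. Per the file headers, the authors made these gene counts, unnormalized UMI counts per cell, with Cell Ranger 6.1.2; the submitters' processing notes name GRCm38 (mm10). The gene annotation, use of strand and assignment of cells to tags are not stated in any source used here. The 6 tag rows of the tables were left out.

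Barcodes under 500 genes or over 10% mitochondrial UMIs were dropped (77 in all), and the others were assigned by the share of their UMIs: at least 0.3% from Ttr, Apob and Apom for endoderm, 3% from 7 globins for erythroid cells, 0.04% from Cdh5, Ctla2a and Plvap for endothelium and 0.03% from Hand1, Vcan and Foxf1 for mesoderm. The counts of a class were added up within each tagged sample, 1250024 to 16784528 UMIs per sum, expressed in CPM (per 1000000 UMIs) and compared as counts with edgeR 4.0.16 (quasi-likelihood test, TMM, filterByExpr, two-sided, Benjamini-Hochberg over all genes tested, threshold 0.05) in R 4.3.3, after testing on simulated data. Intervals are exact 95% Poisson or Clopper-Pearson intervals and cover counting error only, and a count of 0 is bounded by 3 counts. Doublets were handled by dropping cells in more than 1 class, with Scrublet (scanpy 1.11.5) as an alternative.

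Classes of a tagged sample come from the same animals, so the sample numbers pair the sums: deviations from class means correlated at 0.0069 to 0.161 in the 4 planned class comparisons, 0.045 to 0.102 for endoderm and erythroid cells and -0.057 to 0.123 for contractile and other mesoderm. Hox genes with 30 or more UMIs in the 4 classes are given per sample and the other members by counts; of each companion list up to 4, the highest in mesoderm, are named by rule. Results for some genes are not reported here. The members and lists were chosen with earlier results of these data known. All 39 Hox identifiers were found in GENCODE M21. The planned contractile gate of 0.1% kept 1, 1 and 2 cells and could not be fitted, and no mesoderm cell had a Tbx4 UMI, so the planned split by that gene gave no value.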

Additional observations from a re-analysis of the deposited data

How the results depend on the processing

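The counts of Hox genes called between mesoderm and endoderm (14 to 15), mesoderm and erythroid cells (13 to 15) and endothelium and endoderm (7 to 7) stayed close to their reported values when each tagged sample was left out, those between mesoderm and endothelium ranged from 5 to 8, those between endoderm and erythroid cells from 3 to 4 and those between contractile and other mesoderm from 0 to 1. Without the low-count filter, 14 genes were called between mesoderm and endothelium (8 higher, 6 lower), 15 between endothelium and endoderm (14 higher, 1 lower), 4 between contractile and other mesoderm and 8 between endoderm and erythroid cells, since more genes were tested. With the tagged sample as a block, the contractile comparison gave 4 calls, and the block changed no other Hox call. That comparison gave 2 calls with DESeq2, with thinned sums or without Scrublet calls, and 3 with gates at 2 times the share; the endoderm and erythroid comparison gave 1 when thinned, where 1 Hox gene was tested. Hoxb3 between mesoderm and endothelium changed sign with library size scaling (0.018), gates at 2 times the share (0.088), over leaving out each tagged sample (-0.52 to 0.38) and without cells with trophoblast transcripts (0.096), Hoxb7 changed sign without those cells (0.0018), and Hoxb2 without tagged sample 3 (-0.037), while without tagged sample 1 it was called (0.53, edgeR adjusted p = 0.0273). Hoxb8 in contractile cells changed sign over leaving out each tagged sample (-0.18 to 0.43) and without cells with trophoblast transcripts (-0.13); none of the genes that changed sign was called in the reported fits, and the cause was not tested. The Hox total of endothelium was 268 with gates at 2 times the share and that of endoderm 12.4 without Scrublet calls. At 10000 UMIs per cell the share with a Hox UMI was 88.0% in endothelium and 12.6% in endoderm. Leaving out each tagged sample gave totals of 325 to 440 in mesoderm, 241 to 253 in endothelium, 14.4 to 15.2 in endoderm and 3.39 to 4.90 in erythroid cells. Library size scaling moved the median of all genes to 0.22 (mesoderm minus endoderm), 0.13 (mesoderm minus endothelium), 0.45 (mesoderm minus erythroid) and 0.27 (endoderm minus erythroid). The contractile gate, the endoderm and erythroid comparison and the removal of cells with trophoblast transcripts were chosen after seeing the data. A contractile gate of 0.3% could not be fitted. Few cells of mesoderm and endothelium limit what can be said of genes under about 10 UMIs.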
